A study of Mus musculus with 42 samples.

Results

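Imprinted genes are genes that are transcribed mainly from the copy inherited from one parent. A list of 40 mouse genes known to be imprinted was matched by gene name to the count tables of mouse cerebellum, in which 35275 genes are listed, and 39 of the 40 were found in both tables (Peg13 was not matched). The list covers well-studied imprinted domains, and its rule uses gene names and no measured value, but it was drawn up with earlier results of these data known. The 30 RNA-seq libraries came from C57BL/6 male mice (C57/BL6NTac in the study's methods), with 5 libraries in each of 6 groups. From 3 to 6 months of age, mice were fed freely (AL), had food withheld for 16 h of each day (IF16), or had food withheld for 24 h every other day (EOD), and these groups were collected at the end of that period. The groups AL-R, IF16-R and EOD-R (written with a dot before the R in the labels and the plots) went through the same 3 months and then had free access to food for 2 months, to 8 months of age. The labels name no allele in any group, and AL-R mice had food freely available throughout. The 12 samples of H3K9me3 chromatin immunoprecipitation and their inputs were not analysed here.

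At an imprinted domain, DNA methylation laid down in the egg or sperm marks one parental copy of a control region, and that mark decides which copy of the neighbouring genes is read. Many imprinted genes act on growth: Igf2 is a fetal growth factor, Igf2r the receptor that clears it, and Cdkn1c and Grb10 restrain proliferation and insulin signalling. Others are strongly transcribed in neurons, among them Snrpn and Ndn of the Prader-Willi region, the zinc finger gene Peg3, and the noncoding RNA Meg3. In neurons Ube3a, a ubiquitin ligase, is read from the maternal copy. The deposited counts add both parental copies together, so imprinting itself was not measured, only the total transcript level.

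The members found lie on 10 chromosomes, with 15 on chromosome 7, 7 on chromosome 6 and 6 on chromosome 12, and 34 of the 39 are listed as protein coding. Of the 39, 17 overlap another listed gene, 5 of them on the same strand and 13 on the other strand, including Mest with Copg2 and Nnat with Blcap. The handling of read strand is not given in the sources used here, so reads of such neighbours may be exchanged or left uncounted. The levels of these members may be off for that reason. All 39 overlap the gene of the same name in RefSeq's GRCm38.p6 annotation.

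A pair of domains on which several results turn are shown by sequence, as given by RefSeq for GRCm38.p6. Peg3 (chr7:6703892-6730421, minus strand) and Usp29 start on opposite strands, at positions 6730419 and 6730583, and share the 163 bases between their starts. This stretch, chr7:6730420-6730582 read on the minus strand, holds 5 CpG sites, the dinucleotide at which DNA methylation occurs, given in capitals.
Peg3 to Usp29: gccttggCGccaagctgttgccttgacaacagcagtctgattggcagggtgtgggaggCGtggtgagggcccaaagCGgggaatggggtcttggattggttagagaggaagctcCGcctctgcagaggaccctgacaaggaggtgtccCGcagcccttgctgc
The Usp29 listed in the count tables covers only chr7:6961160-6963769, which begins 230577 bases from this start, so its values count that span alone.

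Meg3 (chr12:109541001-109571726, plus strand) is the noncoding RNA with the highest level per length among the members. The 250 bases before its RefSeq start, chr12:109540746-109540995, are shown because Meg3 and the RNAs downstream of it are followed together below, and the capitals mark a match to the hexamer TGCCGC, the core bound by the imprint protein ZFP57 when methylated, here on the opposite strand.
Meg3: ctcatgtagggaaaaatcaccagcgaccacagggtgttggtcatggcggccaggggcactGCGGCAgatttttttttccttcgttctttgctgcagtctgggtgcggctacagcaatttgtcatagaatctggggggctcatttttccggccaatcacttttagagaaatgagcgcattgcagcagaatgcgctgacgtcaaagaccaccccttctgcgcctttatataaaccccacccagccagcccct
Counting both strands and the RefSeq windows from 250 bases before to 50 bases after a start, TGCCGC was present for 12 of the 32 members with a window (37.5%), against 13.1% of the 27025 genes with one. By window the shares were 26.0% of 50 and 11.6% of 32851. The windows of the members also held more CpG sites, with a median of 15 against 7 over all windows. TGCCGC itself holds a CpG, so its count and that of CpG sites are not independent. A match describes these letters only.

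Downstream of Meg3, the noncoding RNAs Rian and Mirg span a large microRNA cluster, and Rtl1 on the other strand lies opposite further microRNAs. RefSeq places 1 microRNA hairpin within the listed span of Meg3, 3 within Rian, 14 within Mirg and 7 within Rtl1. One mature microRNA of each span is given, with its seed (bases 2 to 8, which pair with targets) in capitals; the 4 seeds differ. MicroRNAs were not measured in these libraries.
mmu-miR-770-3p, in Meg3: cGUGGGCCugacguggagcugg
mmu-miR-370-3p, in Rian: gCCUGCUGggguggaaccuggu
mmu-miR-410-3p, in Mirg: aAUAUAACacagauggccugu
mmu-miR-127-3p, opposite Rtl1: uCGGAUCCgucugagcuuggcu

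The members covered a wide range of levels. On the deposited FPKM scale (counts per kilobase of gene and per unit of total counts, the scale on which genes can be compared), 17 of the 39 averaged at least 10 FPKM over the 30 libraries, 11 averaged from 1 to under 10, and 11 were under 1. Snrpn, which encodes a splicing protein, was highest at 230 ± 21.0 FPKM (SD, n = 30 over all groups). Nap1l5, a nucleosome assembly protein gene inside Herc3, followed at 213 ± 20.4, and the ranges of both (204 to 298 and 179 to 272) overlapped. Ndn, a MAGE family protein gene of neurons, stood at 131 ± 14.8 and Meg3 at 118 ± 17.1, again overlapping, and Nnat, a small membrane protein gene in an intron of Blcap, at 86.6 ± 15.9. Together the 39 members held a median of 0.544% of the counts of a library in each table (0.492% to 0.607% in the table of AL, IF16 and EOD, and 0.522% to 0.593% in that of AL-R, IF16-R and EOD-R).

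Within a domain, levels differed widely. On chromosome 12, Meg3 at 118 FPKM, Rian at 56.6 ± 6.02 and Mirg at 12.7 ± 1.80, which are read from the maternal copy, stood above the paternally read Dlk1 at 1.22 ± 1.04, Rtl1 at 0.463 ± 0.104 and Dio3 at 0.0585 ± 0.0348. In the Prader-Willi region of chromosome 7, Snrpn and Ndn were far above Mkrn3 at 0.894 ± 0.240 and Magel2 at 0.113 ± 0.0645, whose ranges did not overlap (0.494 to 1.47 and 0.0346 to 0.328). Igf2 averaged 30.4 ± 8.26 FPKM and H19, the noncoding RNA beside it, 0.907 ± 0.225. Phlda2 and Dio3 had at most 3 and 10 counts in any library and were left out of the edgeR tests by the filter on low counts, which leaves 37 members tested in each comparison; DESeq2, run without that filter, took in all 39.

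**Figure D1:**
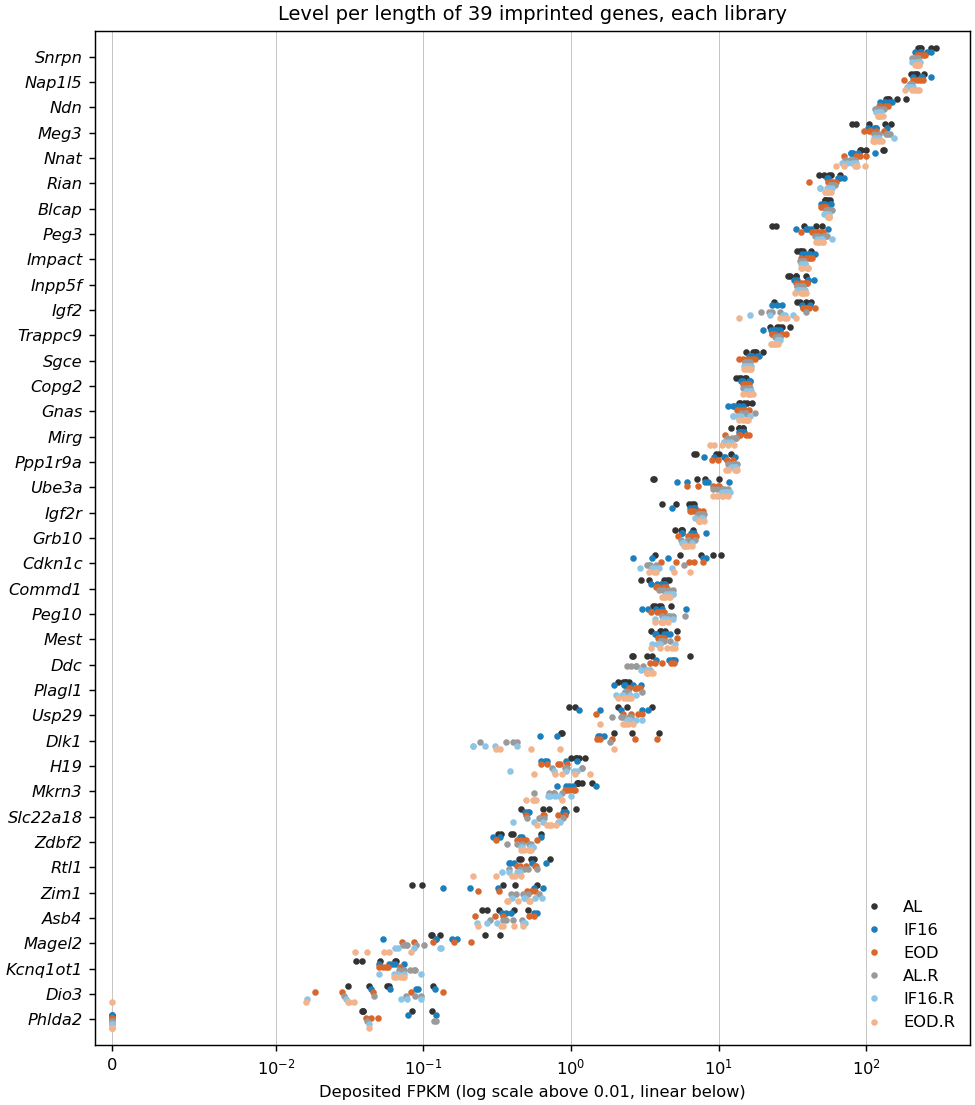
Deposited FPKM of each of the 39 members (rows, ordered by mean) in each of the 30 libraries (points, coloured by group); the axis is logarithmic above 0.01. Levels run from Snrpn at 230 FPKM on average to Phlda2 at 0.0338, and Dlk1 alone runs from 0.215 to 3.95 FPKM between libraries.

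Total counts ranged from 26799825 to 36167435 per library, so for members above a few CPM (counts relative to the library total, scaled by TMM factors within each table) the spread between libraries sets the precision, not counting. The labels number the replicates but do not say that each library is a separate mouse; if some shared a source, the p-values would measure technical spread. Cerebellar markers were present in every library: the 8 granule cell markers summed to 5513 to 6783 CPM and the 8 Purkinje cell markers to 5766 to 8370 CPM, and 8 brainstem markers to at most 1.05 CPM. Markers of the choroid plexus, a tissue that lies within the ventricles, varied the most. Its 11 markers, all detected, summed to 40.5 to 4297 CPM in the first table and 33.3 to 2317 CPM in the second. The highest library of every group held at least 680 CPM. EOD replicate 1 and EOD-R replicate 5 held the liver transcript Alb at 63.4 and 22.8 CPM, and EOD replicate 3 the pituitary transcript Gh at 21.1 CPM. Libraries also differed in a length gradient, the slope of log2 CPM on log2 gene length, which ran from -0.16 (AL replicate 4) to 0.14 (EOD replicate 4) in the first table and from -0.03 to 0.04 in the second.

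Several members followed that gradient. Across the 15 libraries of AL, IF16 and EOD, 18 of the 37 members had a correlation with the gradient above 0.7 in size, against 38.6% of all genes tested (48.6% of the members). In the 15 libraries of AL-R, IF16-R and EOD-R, 3 members did (8.11%, against 4.97% of all genes). Ube3a (chr7:59228752-59306727) held 50.3, 40.6, 35.8, 18.9 and 19 CPM in AL replicates 1 to 5. It held 26.6, 30.9, 58.7, 42.6 and 41.1 CPM in IF16 and 49.5, 51.3, 36.4, 48.4 and 31.2 CPM in EOD. The lowest values thus fell in AL replicates 4 and 5 and IF16 replicate 1, the libraries with the lowest gradients (-0.16, -0.11 and -0.11), and the 3 groups overlapped. After removal of group means, Ube3a correlated with the gradient with r = 0.908 and rho = 0.846 (n = 15), and r = 0.943 without the 2 outermost libraries. Peg3, a zinc finger transcription factor, gave r = 0.872 and rho = 0.879, and Snrpn gave r = -0.872 and rho = -0.807. Without the 2 outermost libraries these were 0.881 and -0.937. In AL-R, IF16-R and EOD-R the same measure gave r = 0.696 for Ube3a (rho = 0.704), 0.102 for Peg3 (rho = 0.25) and -0.128 for Snrpn (rho = -0.211). These 3 genes were picked for this after their values were seen, so the coefficients are descriptions and no p-value is given.

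**Figure D2:**
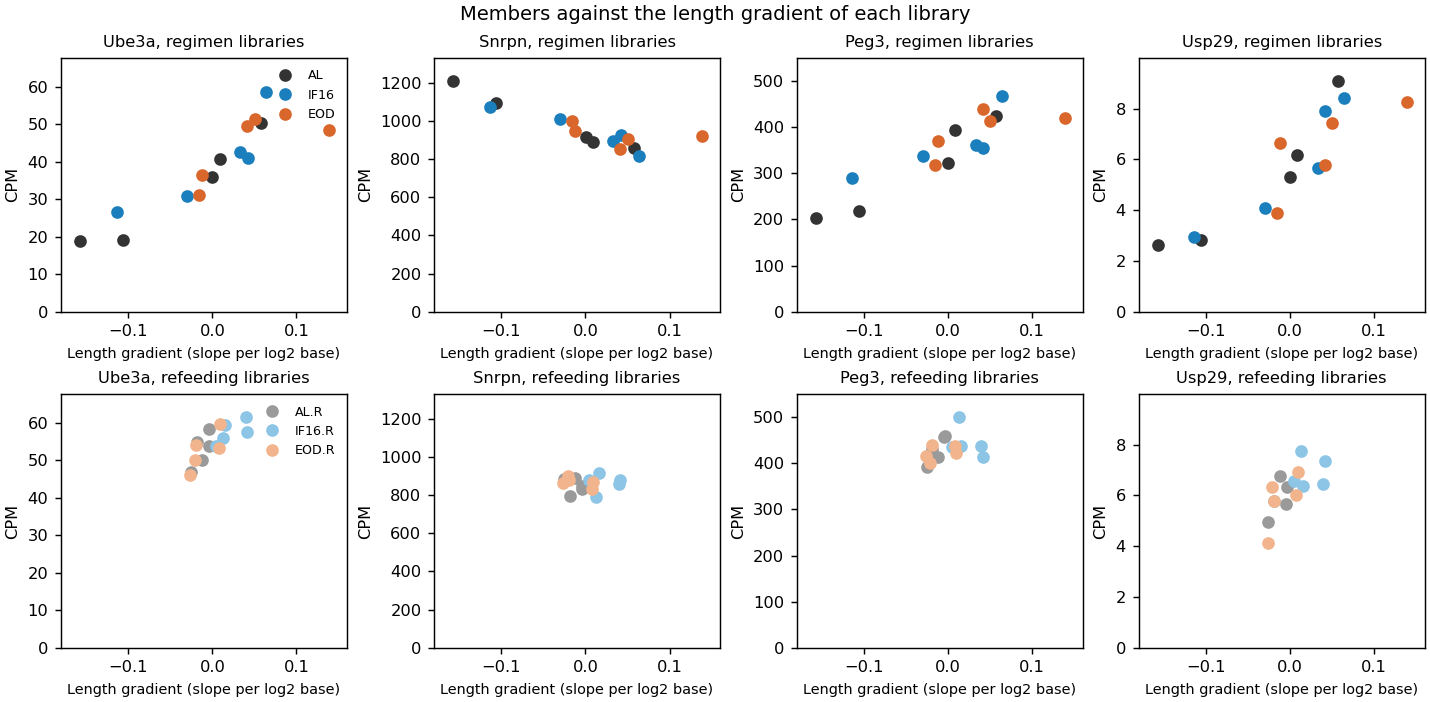
CPM of Ube3a, Snrpn, Peg3 and Usp29 (vertical axes) against the length gradient of each library (horizontal axis), with the libraries at the end of the regimens above and the refed libraries below; each point is 1 library, coloured by group. In the upper row Ube3a runs from 18.9 to 58.7 CPM as the gradient goes from -0.16 to 0.06, and Snrpn runs the other way.

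Other members followed the choroid plexus transcripts; Cdkn1c and Dlk1 were picked for this after their values were seen and are described without a p-value, while Igf2 was on the list of planned relations. Cdkn1c, a cyclin-dependent kinase inhibitor (chr7:143458350-143461050), held 6.97, 14.6, 17.5, 20.6 and 10.8 CPM in AL, 15.1, 8.80, 6.64, 15.6 and 5.11 CPM in IF16, and 15, 9.99, 12.1, 8.23 and 13.3 CPM in EOD. Its lowest values were in IF16 replicate 5 and in AL replicate 1 and IF16 replicate 3, where the choroid plexus markers summed to 40.5, 45.3 and 355 CPM. The correlation of Cdkn1c with the mean log2 CPM of these markers (the choroid plexus score) was r = 0.929 and rho = 0.961 (n = 15), and r = 0.920 without the 2 outermost libraries. For Igf2 it was r = 0.912 and rho = 0.871 (permutation within groups, p = 0.0001 and 0.00039, adjusted p = 0.00059 and 0.0022), and r = 0.849 without the 2 outermost libraries.

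Dlk1, a transmembrane protein of the Notch ligand family, gave r = 0.651 and rho = 0.6 with the same score. Without the 2 outermost libraries r was 0.376, so this relation rests on those libraries, AL replicate 1 and IF16 replicate 5. Among the refed libraries 9 had choroid plexus markers at 33.3 to 46.4 CPM and the other 6 were spread from 190 to 2317 CPM. No coefficient was computed over these, which departs from the planned relations, whereas the first table, with 2 low libraries (40.5 and 45.3 CPM), was pooled and its r given also without them. In the refed libraries Dlk1 held 8.40 CPM in AL-R replicate 1 and 9.02 CPM in EOD-R replicate 3, whose choroid plexus markers summed to 2000 and 2317 CPM. In EOD-R replicate 2 it held 3.89 CPM, with markers at 959 CPM, and in the other 12 libraries 1 to 2.49 CPM. In IF16-R replicate 1, however, Dlk1 was at 1.19 CPM with markers at 680 CPM.

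Igf2 also varied with the markers of meningeal fibroblasts, which are known to make it. The 10 meningeal markers, all detected, summed to 115 CPM (EOD-R replicate 5) to 259 CPM (AL replicate 2). With the mean log2 CPM of these markers, Igf2 gave r = 0.883 and rho = 0.861 among the refed libraries (n = 15, permutation p = 0.00031 and 0.00041, adjusted p = 0.0012 and 0.0022), and r = 0.651 without the 2 outermost. At the end of the regimens it gave r = 0.656 and rho = 0.686 (permutation p = 0.031 and 0.020, adjusted p = 0.059 and 0.041). In whole tissue, fewer cells of a type and less RNA per cell cannot be told apart.

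**Figure D3:**
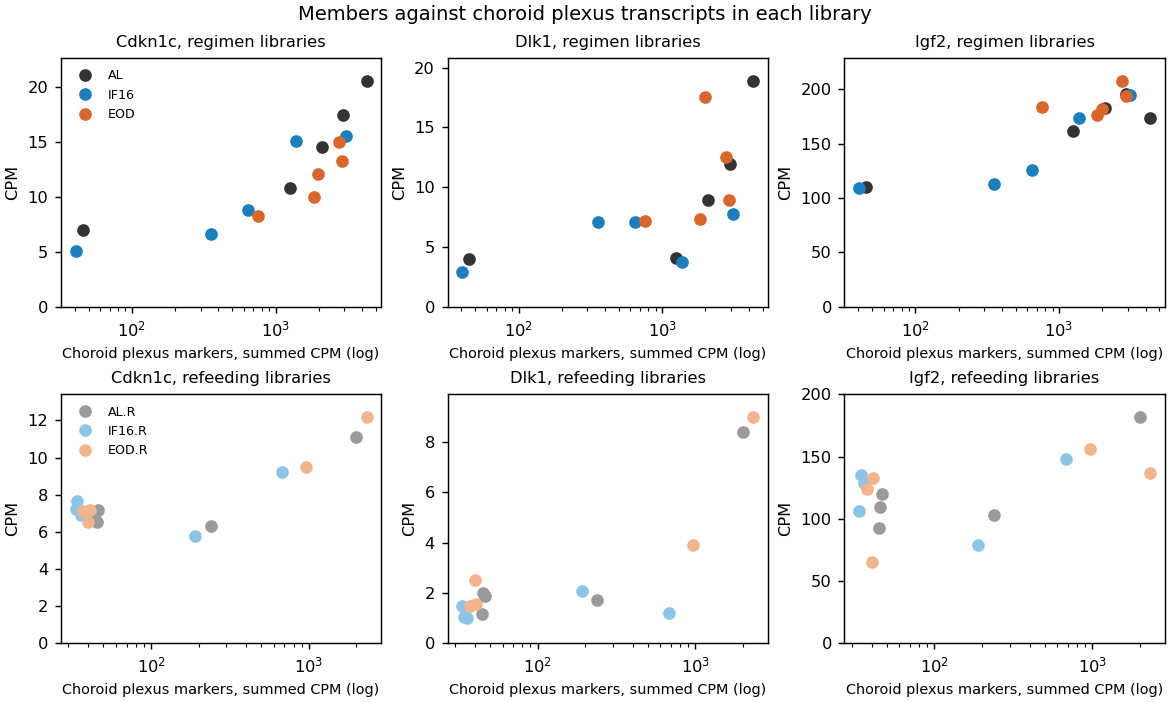
CPM of Cdkn1c, Dlk1 and Igf2 (vertical axes) against the summed CPM of 11 choroid plexus markers (horizontal axis, logarithmic), for the libraries at the end of the regimens (top) and the refed libraries (bottom); each point is 1 library. Cdkn1c lies at 5.11 to 6.97 CPM in the 3 libraries of the top row with the fewest choroid plexus transcripts and at 20.6 CPM in the one with the most.

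The first comparisons asked whether fasting changed the members by the end of the regimens. No member passed adjustment in IF16 against AL (edgeR quasi-likelihood test, Benjamini-Hochberg over 16577 genes; DESeq2 also called 0), where 0.0483% of all genes were called. At an unadjusted p under 0.05 there were 4 of 37, 1 higher and 3 lower, or 10.8% against 9.92% of all genes, so the share of members was near the background. The median log2 fold change was 0.05 over the members and -0.01 over all genes tested. For 33 of the 37 the 95% interval of the difference lay within 2-fold, and for 24 within 1.5-fold; the 4 wider intervals were those of Dlk1, Magel2, Cdkn1c and Zim1.

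The 3 members with the smallest p in IF16 against AL were H19, Gnas and Inpp5f. H19 (chr7:142575529-142578143) held 2.43, 2.27, 2.43, 2.67 and 2.88 CPM in AL and 2.52, 2.10, 1.52, 1.5 and 1.44 CPM in IF16. Of the IF16 libraries, 4 lay below all AL libraries and replicate 1 within them, and the log2 fold change was -0.48 ± 0.16 (SE, edgeR adjusted p = 0.371). Gnas, which encodes the stimulatory G protein subunit and shares its locus with antisense transcripts, averaged 51.1 CPM in IF16 and 59.3 in AL, with a log2 fold change of -0.21 ± 0.09 (adjusted p = 0.446). Inpp5f, a phosphoinositide phosphatase, averaged 180 and 156 CPM, with 0.20 ± 0.09 (adjusted p = 0.474).

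In EOD against AL no member passed adjustment either, by edgeR or DESeq2, with 0.0664% of all genes called. At an unadjusted p under 0.05 there were 6 of 37, 3 higher and 3 lower, which is 16.2% against 14.4% of all genes. The median was 0.04 over the members and -0.02 over all genes tested, and 34 intervals lay within 2-fold. H19 held 1.84, 1.57, 2.14, 1.5 and 1.93 CPM in EOD, every library below every AL library, with a log2 fold change of -0.49 ± 0.16 (adjusted p = 0.293). Its counts were 27 to 91 per library over all groups. With the length gradient as a covariate the H19 difference was -0.29. Ndn (chr7:62348277-62349928) held 226, 222, 231, 316 and 271 CPM in AL and 198, 203, 231, 212 and 224 CPM in EOD. The highest 2 values were those of AL replicates 4 and 5, the rest overlapped, and the difference was -0.25 ± 0.09 (adjusted p = 0.317), or -0.10 with the gradient as a covariate. Plagl1, a zinc finger regulator of an imprinted gene network, averaged 14.4 ± 1.08 CPM (SD, n = 5) in EOD and 12.1 ± 0.832 in AL, a difference of 0.25 ± 0.10 (adjusted p = 0.321). Mkrn3, named here after its values were seen, also did not overlap, averaging 2.55 CPM in EOD and 3.01 in AL (edgeR adjusted p = 0.394). The share of all genes whose groups do not overlap was not counted in any comparison.

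IF16 and EOD share the AL libraries, so their differences are not independent; set directly against each other, EOD and IF16 gave 0 called members of 37 and 0% of all genes (DESeq2 also called 0 members). At an unadjusted p under 0.05 there were 2 members, 5.41% against 3.62% of all genes, namely Igf2 and Dlk1. Igf2 held 174, 126, 113, 195 and 109 CPM in IF16 and 208, 176, 182, 184 and 194 CPM in EOD, with a log2 fold change of 0.39 ± 0.16 (edgeR adjusted p = 0.977). The 3 lowest values, in IF16 replicates 2, 3 and 5, were in the 3 IF16 libraries with the fewest choroid plexus transcripts, and with the choroid plexus score as a covariate the difference was 0.16. Dlk1 held 3.73, 7.06, 7.11, 7.73 and 2.88 CPM in IF16 and 12.5, 7.32, 17.5, 7.21 and 8.89 CPM in EOD, with 0.91 ± 0.41 (adjusted p = 0.977), or 0.42 with that covariate. The choroid plexus markers summed to 40.5 to 3111 CPM in IF16 and 759 to 2910 CPM in EOD; their part in these differences beyond the covariate fit was not tested.

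**Figure D4:**
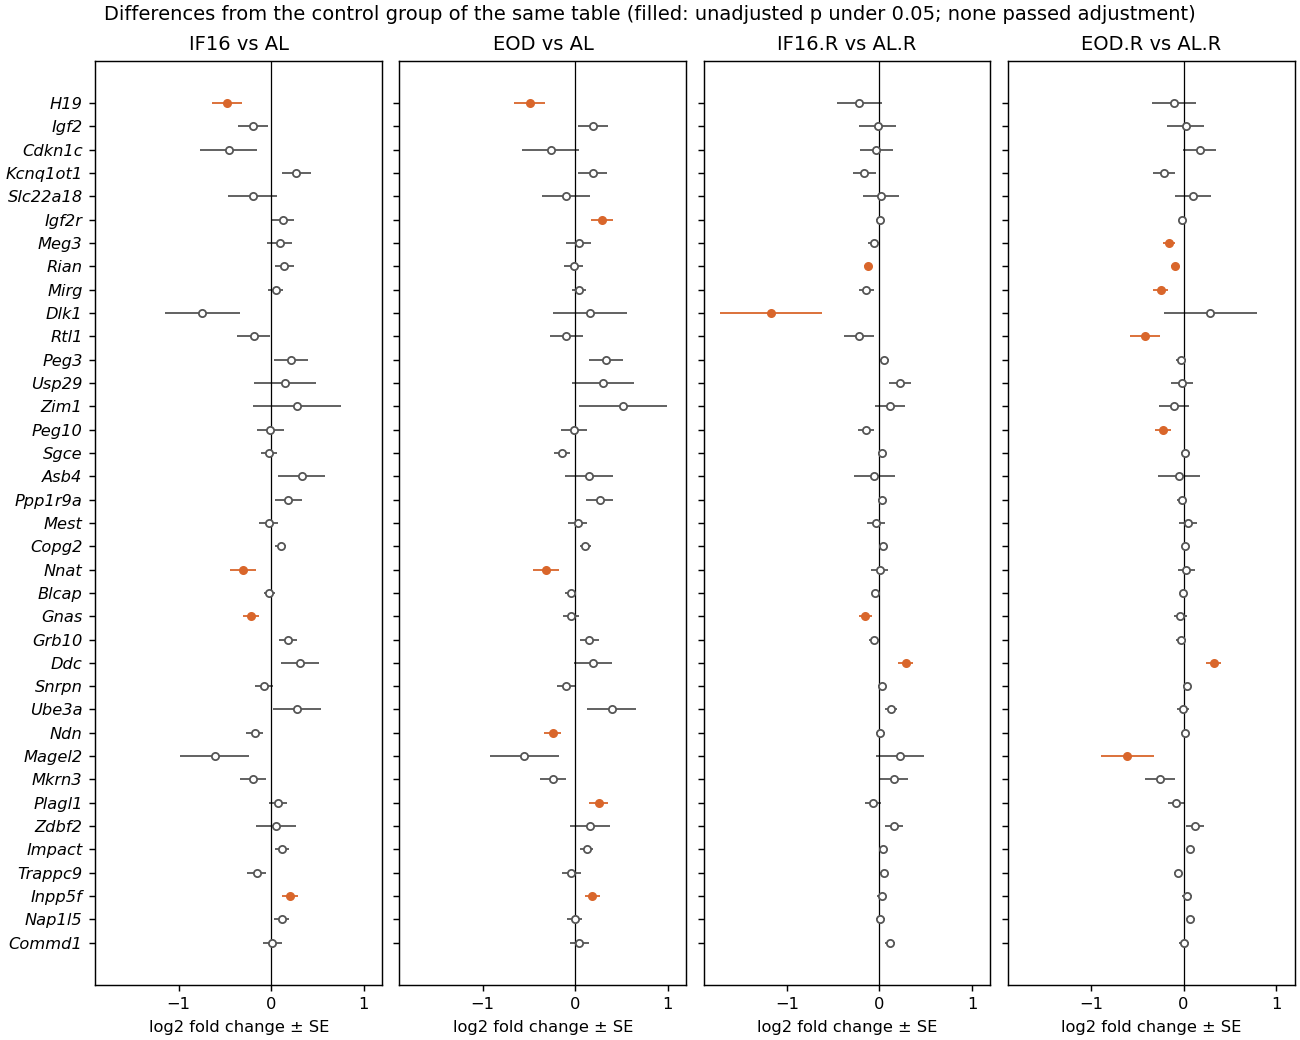
Log2 fold change ± SE (horizontal axes) of the 37 tested members (rows, grouped by domain) in IF16 and EOD against AL and in IF16-R and EOD-R against AL-R; filled points have an unadjusted p under 0.05. No member passed adjustment in any of the 4 panels, and most error bars are shorter in the refed libraries, Dlk1 being an exception (± 0.41 in IF16 and ± 0.55 in IF16-R).

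After 2 months of free feeding, the comparisons asked whether the earlier regimen left a difference. In IF16-R against AL-R 0 of 37 members were called (edgeR; DESeq2 also 0), with 0.17% of all 16444 genes called. At an unadjusted p under 0.05 there were 4, 1 higher and 3 lower, which is 10.8% against 9.58% of all genes, and the median log2 fold change was 0.0081 over the members and -0.0023 over all genes. In EOD-R against AL-R 0 were called by either tool, with 0.0426% of all genes called, and 7 had an unadjusted p under 0.05, 1 higher and 6 lower, which is 18.9% against 8.5% of all genes. The median there was -0.013 over the members and 0.0007 over all genes. The spread was smaller here than at the end of the regimens: the 95% interval lay within 1.5-fold for 34 and 32 of the 37 members.

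Ddc (chr11:11814101-11898144), the decarboxylase that makes dopamine and serotonin, had the smallest p of all members in both comparisons with AL-R. It held 4.74, 5.46, 5.15, 6.22 and 5.61 CPM in AL-R, 6.36, 5.99, 7.07, 6.99 and 6.71 CPM in IF16-R, and 6.96, 6.57, 6.58, 6.65 and 7.32 CPM in EOD-R. Every EOD-R library was above every AL-R library, and in IF16-R only replicate 2 lay within the AL-R range. The log2 fold changes were 0.28 ± 0.08 in IF16-R (edgeR adjusted p = 0.25) and 0.33 ± 0.08 in EOD-R (adjusted p = 0.195), and both comparisons share the AL-R libraries. The 7 markers of monoamine neurons, none at 0 throughout, summed to 18.1 to 24.3 CPM in AL-R. They summed to 18.0 to 21.2 CPM in IF16-R and 18.4 to 31.0 CPM in EOD-R, so the groups overlapped in this sum. Th alone held 11.3 to 16.0 CPM in the refed libraries, so the sum largely reflects Th. Of the 5 markers tested, 4 had a negative log2 fold change in IF16-R and 4 a positive one in EOD-R, with 0 called. Their part in the Ddc differences was not tested.
At the end of the regimens Ddc held 7.03, 5.19, 6.45, 13.3 and 5.38 CPM in AL against 7.60 to 9.92 CPM in IF16 and 7.15 to 9.99 CPM in EOD. The outlying AL replicate 4 also held Tph2, the serotonin synthesis enzyme, at 9.88 CPM, against at most 2.84 CPM in the other libraries of that table. There Ddc differed from AL by 0.31 ± 0.21 in IF16 (edgeR adjusted p = 0.607) and by 0.19 ± 0.21 in EOD (edgeR adjusted p = 0.612).

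On chromosome 12, Mirg, Rtl1, Meg3 and Rian had a negative log2 fold change in EOD-R against AL-R with an unadjusted p under 0.05, and 0 of them passed adjustment; of these only Mirg falls under the rule of the 3 smallest p, and the others are named after their values were seen. Mirg (chr12:109729764-109749460) held 46.4, 42.6, 49.8, 49.9 and 49.4 CPM in AL-R and 33.4, 34.9, 44.0, 40.4 and 48.4 CPM in EOD-R. EOD-R replicates 1, 2 and 4 lay below all AL-R libraries and the others within, and the log2 fold change was -0.24 ± 0.08 (edgeR adjusted p = 0.405). Meg3 held 2080, 2008, 1971, 1642 and 1781 CPM in AL-R and 1845, 1750, 1647, 1640 and 1630 CPM in EOD-R, with -0.16 ± 0.07 (adjusted p = 0.555), and its highest values, in AL-R replicates 1 to 3, lay above all EOD-R libraries. Rian averaged 473 ± 10.1 and 443 ± 14.2 CPM (SD, n = 5), with -0.09 ± 0.04 (adjusted p = 0.57), and Rtl1 averaged 3.04 and 2.28 CPM, with -0.41 ± 0.16 (adjusted p = 0.486). Dlk1, read from the paternal copy as Rtl1 is, gave 0.29 ± 0.50. Markers of other cells also differed in EOD-R against AL-R: all 8 markers of astrocytes and Bergmann glia had a positive log2 fold change, 1 of them called. Of 8 oligodendrocyte markers 4 were higher, and all 5 erythroid markers lower (median log2 fold change -1.61), at an unadjusted p under 0.05. Their part in the differences of these members was not tested. In IF16-R against AL-R, Rian gave -0.12 ± 0.04 (edgeR adjusted p = 0.35), Mirg -0.14 ± 0.08 and Meg3 -0.06 ± 0.07. With the length gradient as a covariate Rian gave -0.01. The gradient ran from -0.0257 to -0.0036 in AL-R and from 0.0046 to 0.0416 in IF16-R, without overlap. In this comparison gradient and group thus cannot be told apart. Peg10, a gene derived from a retrotransposon and needed in the placenta, was the remaining one of the 3 members in EOD-R, at 27.5 against 32.1 CPM, with -0.22 ± 0.09 (adjusted p = 0.466). Gnas was the remaining one in IF16-R, at 54.8 against 60.9 CPM, with -0.15 ± 0.07 (adjusted p = 0.495).

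**Figure D5:**
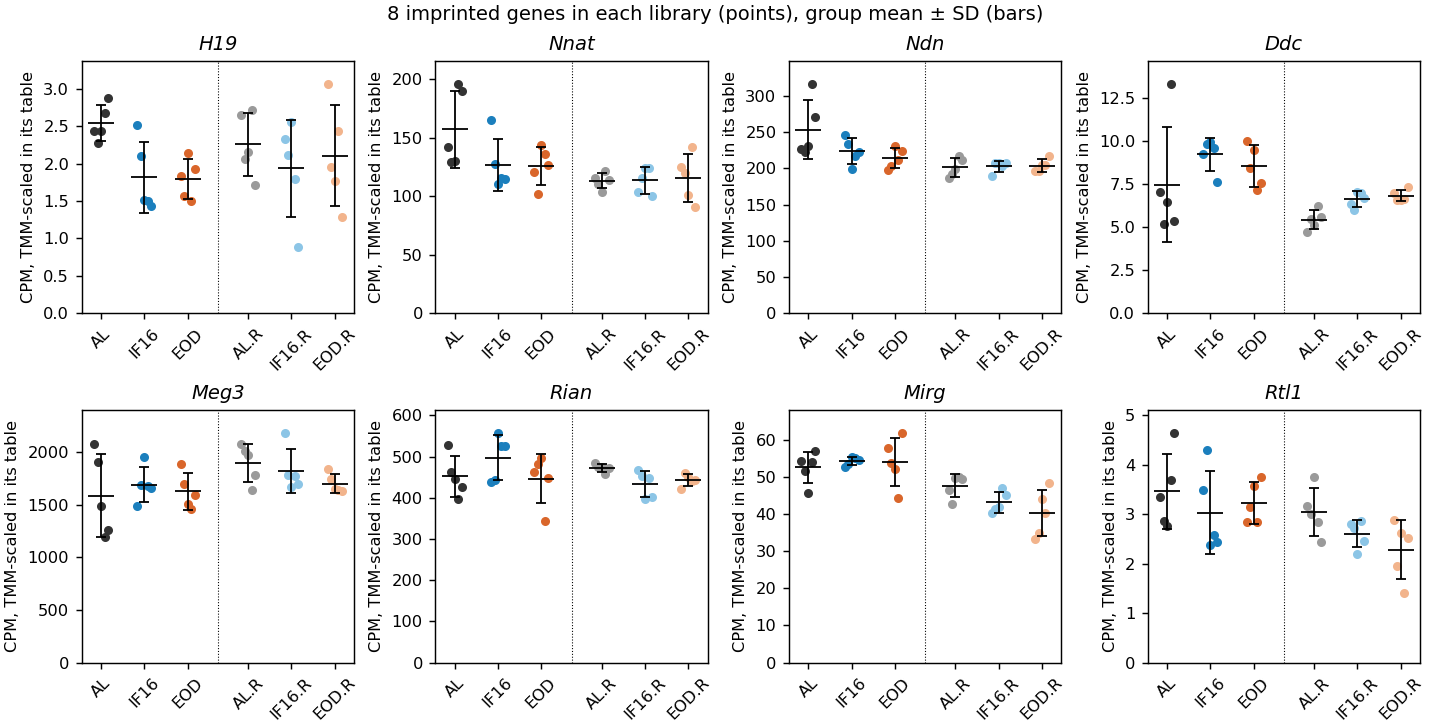
CPM of H19, Nnat, Ndn, Ddc, Meg3, Rian, Mirg and Rtl1 in every library (points) of the 6 groups, with the group mean and SD; the dotted line parts the 2 tables, which were scaled separately. H19 is at 1.5 to 2.14 CPM in EOD, below the 2.27 to 2.88 CPM of AL, and Ddc at 6.57 to 7.32 CPM in EOD-R, above the 4.74 to 6.22 CPM of AL-R.

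EOD-R against IF16-R gave 0 called members (edgeR; DESeq2 also 0) with 0.0182% of all genes called, and 4 members at an unadjusted p under 0.05, 10.8% against 9.75% of all genes. Trappc9, a vesicle transport subunit gene, averaged 111 CPM in EOD-R and 120 in IF16-R, with a log2 fold change of -0.11 ± 0.04 (adjusted p = 0.333). Magel2, a ubiquitin ligase regulator, had 5 to 52 counts per library over all groups and gave -0.83 ± 0.28 (adjusted p = 0.333), with 0.161 to 0.379 CPM in EOD-R and 0.304 to 0.628 CPM in IF16-R. Dlk1 gave 1.46 ± 0.55 (edgeR adjusted p = 0.365), and it was 0.81 without EOD-R replicate 3. With the choroid plexus score as a covariate it was 0.78, and with the length gradient 0.15. The choroid plexus fit is linear, over scores for which no correlation was computed above because of their uneven spread. The gradient ran from -0.0261 to 0.0093 in EOD-R and from 0.0046 to 0.0416 in IF16-R. With so little overlap, gradient and group can hardly be told apart here.

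Whether refeeding altered a difference from the controls was tested in 1 fit of all 30 libraries. No member passed adjustment for IF16 or for EOD by edgeR or DESeq2, where 0.0474% and 0.0119% of 16877 genes were called. For IF16, 2 members had an unadjusted p under 0.05 (5.41%, against 7.21% of all genes), Rian and Kcnq1ot1. Rian had a change of -0.26 ± 0.12 (edgeR adjusted p = 0.668). Kcnq1ot1, a noncoding RNA that silences genes of its domain, Cdkn1c among them, had -0.43 ± 0.21 (edgeR adjusted p = 0.686). For EOD there were 4 (10.8%, against 10.3% of all genes), of which Ndn gave 0.26 ± 0.10, Plagl1 -0.33 ± 0.13 and Mirg -0.29 ± 0.12 (adjusted p = 0.462, 0.466 and 0.466). These changes compare mice of different ages that stand in separate tables.

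AL-R and AL differ in age (8 and 6 months) and in the table, so age and any difference in handling between the 2 sets cannot be told apart. In the 30-library fit 13 of 37 members were called, 5 higher and 8 lower in AL-R, where 23.9% of all genes were called. At an unadjusted p under 0.05 there were 19 (51.4%, against 40% of all genes). That fit pools the spread of all 6 groups, so its SEs and p-values do not rest on AL and AL-R alone. The common coefficient of variation estimated by edgeR was 14.3% in the first table, 8.05% in the second and 11.7% in the joint fit. Ube3a (0.67 ± 0.20), Kcnq1ot1 (0.64 ± 0.15), Peg3 (0.46 ± 0.14), Ppp1r9a (0.45 ± 0.12), which encodes a scaffold of dendritic spines, and Igf2r (0.38 ± 0.09) rose, on the log2 scale ± SE (edgeR adjusted p from 0.00669 to 0.0246). Dlk1 (-1.67 ± 0.50), Magel2 (-1.19 ± 0.33), Cdkn1c (-0.90 ± 0.27), Mkrn3 (-0.70 ± 0.15), Nnat (-0.48 ± 0.12), Ddc (-0.46 ± 0.16), Ndn (-0.34 ± 0.07) and Snrpn (-0.23 ± 0.07) fell (edgeR adjusted p from 0.00485 to 0.0415). Cell type markers differed in the same comparison. All 6 tested markers of monoamine neurons had a negative log2 fold change (2 called, median -1.01), as did all 8 of oligodendrocytes (4 called, median -0.24) and all 11 of choroid plexus (1 called, median -1.51). Positive log2 fold changes were found for 7 of 8 granule cell markers (4 called) and 6 of 8 Purkinje cell markers (3 called). All 5 erythroid markers were positive too (3 called). Their part in the members' differences was not tested beyond the choroid plexus covariate. Mkrn3, a ring finger protein gene, held 2.76 to 3.50 CPM in AL and 1.44 to 2.22 CPM in AL-R in that fit, without overlap. Ube3a held 18.8 to 50.6 CPM in AL and 46.8 to 58.4 CPM in AL-R, and the low end of AL was set by replicates 4 and 5.

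Most of these calls depended on a library or a covariate. Without AL replicate 4, the library with the lowest length gradient, 4 members were called, and 830 of all 17008 genes. Without AL-R replicate 2 there were 8 members and 2111 of 17009 genes. Without AL replicate 1 there were 19 members and 6173 of 17005 genes. With the length gradient as a covariate 1 member was called, Mkrn3, and 223 of 16877 genes. With the choroid plexus score there were 6 members and 1069 of 16877 genes. The calls over all genes thus moved as well. When only the 10 libraries of AL and AL-R were fitted, 0 were called while 17 had an unadjusted p under 0.05, and 28 genes of 16313 were called in all. Ddc, at -0.46 with all libraries, was at -0.16 without AL replicate 4.

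Neighbouring members were then compared across libraries with group means removed, in a family of 27 relations (19 chosen from the domains and 8 after values were seen), with permutation p-values adjusted by Benjamini-Hochberg over all 27 and printed for the former. Meg3 and Rian moved together at the end of the regimens, with r = 0.655 and rho = 0.668 (n = 15, permutation p = 0.0039 and 0.0077, adjusted p = 0.011 and 0.019), though without the 2 outermost libraries r was 0.591 and adjustment was no longer passed (adjusted p = 0.083). Among the refed libraries r was 0.558 (rho = 0.632, permutation p = 0.034 and 0.017, adjusted p = 0.059 and 0.038), falling to 0.276 without the 2 outermost. Meg3 and Mirg gave r = 0.151 (rho = 0.171, permutation p = 0.64 and 0.58, adjusted p = 0.76 and 0.67) and, among the refed libraries, r = -0.538 and rho = -0.543 (permutation p = 0.011 and 0.027, adjusted p = 0.025 and 0.052). Without the 2 outermost libraries these were 0.645 and -0.588, and neither passed adjustment (adjusted p = 0.083 and 0.088). Rian and Mirg gave r = 0.448 and rho = 0.229 (permutation p = 0.19 and 0.45, adjusted p = 0.3 and 0.59) and, among the refed libraries, r = -0.038 and rho = -0.143 (permutation p = 0.88 and 0.62, adjusted p = 0.88 and 0.67). Meg3 and Dlk1 gave r = -0.164 and rho = -0.136 (permutation p = 0.65 and 0.68, adjusted p = 0.76 and 0.69), and 0.128 and 0.121 among the refed libraries (permutation p = 0.65 and 0.69, adjusted p = 0.76 and 0.69). Whether a relation differed between the tables was not tested. How often other gene pairs reach coefficients of this size was not counted, and 38.6% of all genes in the first table followed the length gradient. Before removal of group means, Meg3 correlated with the gradient there at r = 0.639 and Rian at 0.219.

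Peg3 and Usp29, whose shared start region is printed above, gave r = 0.898 and rho = 0.829 at the end of the regimens (permutation p = 0.00018 and 0.00098, adjusted p = 0.00081 and 0.0038), and r = 0.823 without the 2 outermost libraries. Both genes follow the length gradient in those libraries, and with the gradient regressed out of both r was 0.5 (adjusted p = 0.16). Among the refed libraries r was 0.271 (rho = 0.232, permutation p = 0.29 and 0.43, adjusted p = 0.43 and 0.59), and -0.170 without the 2 outermost. Snrpn and Ube3a lie in one domain and are read from opposite parental copies. They gave r = -0.960 and rho = -0.954 (permutation p = 3e-05 and 5e-05, adjusted p = 0.00036 and 0.00067) and r = -0.821 with the gradient regressed out (adjusted p = 0.011). Among the refed libraries r was -0.221 (rho = -0.286, permutation p = 0.41 and 0.33, adjusted p = 0.59 and 0.52). Nnat and Blcap, which overlap on opposite strands, gave r = 0.742 and rho = 0.804 (permutation p = 0.0037 and 0.0016, adjusted p = 0.011 and 0.0054), or 0.350 with the gradient regressed out and 0.598 without the 2 outermost libraries (adjusted p = 0.23 and 0.16). Among the refed libraries they gave 0.036 and 0.143 (permutation p = 0.87 and 0.58, adjusted p = 0.88 and 0.67). Peg10 and Sgce, which start side by side on opposite strands, gave r = -0.502 and rho = -0.525 (permutation p = 0.035 and 0.056, adjusted p = 0.059 and 0.095), and 0.212 and 0.161 among the refed libraries (permutation p = 0.49 and 0.6, adjusted p = 0.67 and 0.67). The spread itself differed: the median within-group coefficient of variation of the tested members was 15.1% at the end of the regimens and 8.79% among the refed libraries, against 13% and 7.52% over all genes tested.

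Of 45 further imprinted genes 40 were found, and of 24 regulators of imprints (DNA methyltransferases, TET enzymes, zinc finger proteins such as ZFP57 and their partners) all 24. By edgeR, 0 of either list passed adjustment in the 6 comparisons within a table or in the 2 changes over refeeding, while some had an unadjusted p under 0.05. In EOD against AL these were 6 of 32 further imprinted genes (18.8%) and 2 of 22 regulators (9.09%), against 14.4% of all genes, and in IF16 against AL 4 of 32 (12.5%) and 3 of 22 (13.6%), against 9.92%. In EOD-R against AL-R they were 4 of 28 (14.3%) and 2 of 22 (9.09%), against 8.5%, and in IF16-R 2 of 28 (7.14%) and 1 of 22 (4.55%), against 9.58%. Atp10a, a phospholipid flippase gene beside Ube3a, had the smallest p of the further imprinted genes: its log2 fold change was 0.41 ± 0.12 in IF16 and 0.55 ± 0.12 in EOD against AL (edgeR adjusted p = 0.307 and 0.153), which share AL, and the EOD difference changed by -0.68 ± 0.17 over refeeding (adjusted p = 0.261). Among the regulators Arid4a gave 0.23 ± 0.06 in IF16-R against AL-R (adjusted p = 0.154). In AL-R against AL, where 23.9% of all genes were called, 6 of 32 further imprinted genes tested were called, 3 in each direction, and 12 of 22 regulators, of which Tet2 (0.53 ± 0.10, adjusted p = 0.00302) and Tet3 rose with 9 others and Zfp57 fell (-0.50 ± 0.14, adjusted p = 0.016), where age and table again cannot be told apart. Over all genes, 4030 were called in that comparison, 223 once the length gradient was a covariate, and 28 with only the 10 libraries of the 2 groups.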

How the data were processed

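Cerebellar RNA of 30 mouse libraries was used. Per the submitters' processing notes, reads were handled with STAR 2.5, HTSeq 0.6.1 and DESeq2 version 2 on mm10; the annotation and strand setting are not given in the sources used here. The authors deposited read counts and FPKM per gene in 2 tables of 15 libraries, and the FPKM values equal the counts divided by gene length and total. Depth was 26799825 to 36167435 counts, so precision is limited mainly by the spread between libraries. From the counts, edgeR 4.0.16 (R 4.3.3; TMM scaling, filterByExpr, quasi-likelihood test) was fitted to each table and to all 30 libraries, with Benjamini-Hochberg adjustment over all genes tested and calls at an adjusted p under 0.05; FPKM served only to compare genes. Correlations used log2 CPM (prior count 2) with group means removed and 100000 permutations within groups, two-sided (numpy 2.4.6, Python 3.11.15). Alternatives were DESeq2 1.42.0, RLE scaling, no filter on low counts, only the groups compared, a replicate block, covariates, and each library left out. The fit was tested on simulated data: of genes changed 2-fold, 86% were recovered in IF16 against AL (16577 genes) and 90% in IF16-R against AL-R (16444 genes). The simulated counts held no length gradient and no choroid plexus differences between libraries. Each simulation changed 100 genes 2-fold and 100 genes 4-fold, whereas 8 and 28 genes were called in the real comparisons. The adjusted threshold is stricter with so few calls, so these shares may not hold for the real data. Changes under 2-fold were not simulated, so recovery of smaller changes is not known. Members and lists were chosen with earlier results of these data known. Named were, per comparison, every member called, otherwise the 3 with the smallest unadjusted p if under 0.05; of the further lists, those called, otherwise the smallest p. Relations added after values were seen are given without p-values.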

Additional observations from a re-analysis of the deposited data

Results flagged for a closer look

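In 13 of the 222 groups of 5 libraries examined, over the 37 members tested, 1 library lay far from the other 4, by the gap to its nearest neighbour as a share of the group's range (5.86%; chance gives about 1 in 20). They concern 11 members. AL-R replicate 1, whose choroid plexus markers summed to 2000 CPM, was highest for 3: Cdkn1c at 11.1 CPM (others 6.29 to 7.19), Dlk1 at 8.4 CPM (others 1.14 to 1.99) and Plagl1 at 15.7 CPM (others 12 to 12.7). IF16-R replicate 1, with choroid plexus markers at 680 CPM, was highest for Meg3 at 2182 CPM (others 1669 to 1781) and Peg3 at 500 CPM (others 414 to 438) and lowest for Ndn at 190.0 CPM (others 203 to 207).

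Ddc was highest in AL replicate 4 at 13.3 CPM (others 5.19 to 7.03), where Tph2 stood at 9.88 CPM, Slc6a4 at 5.37 CPM and Dbh at 14.1 CPM, and lowest in IF16 replicate 5 at 7.6 CPM (others 9.25 to 9.92). The part of these marker transcripts in the Ddc value was not tested. Igf2r was lowest in IF16 replicate 1 at 42.9 CPM (others 56.7 to 60.5), a library with a length gradient of -0.11, and in IF16-R replicate 2 at 62.0 CPM (others 68.1 to 69.4). Mest was highest in EOD replicate 1 at 13.1 CPM (others 10.3 to 10.9), Mkrn3 in EOD-R replicate 1 at 2.21 CPM (others 1.27 to 1.48) and Zdbf2 in AL replicate 1 at 7.72 CPM (others 4.1 to 5.06).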

How the results depend on the processing

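In the 6 comparisons within a table and both changes over refeeding, 0 of the members were called under every alternative run (RLE scaling, no filter on low counts, DESeq2, only the groups compared, replicate block, both covariates, each library left out). In AL-R against AL the 13 called members became 1 with the length gradient as a covariate and 6 with the choroid plexus score. They became 0 with only the groups compared, and 4 to 19 with a library left out. Over all genes the 4030 calls became 223, 1069 and 28 in the same order, and 830 to 6173 with a library left out. The cause was not tested. Of named members, 584 values kept their direction and side of the threshold and 60, all in AL-R against AL, lost the call. The labels do not say that replicate numbers pair the samples, and not every pair met the bar of 0.1: 3 of 15 same-numbered pairs correlated above 0.1 at the end of the regimens and 8 of 15 after refeeding, and 0 and 7 of 15 libraries correlated best with their own number, a hint of shared numbers after refeeding from the data and not from the design. With the replicate block fit, 0 members were called within tables and 13 in AL-R against AL, where Ddc was lost (edgeR adjusted p = 0.0515). Over all genes, calls in IF16, EOD, IF16-R and EOD-R against their controls were 8, 11, 28 and 7 with edgeR and 96, 128, 107 and 76 with DESeq2, and 5, 4, 95 and 45 with the replicate block; EOD-R against IF16-R went from 3 to 124 and 40.

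Some weak correlations changed sign. Without the 2 outermost libraries, Rian with Mirg was -0.097 at the end of the regimens, and after refeeding Meg3 with Dlk1 was -0.151, Peg3 with Usp29 -0.170 and Peg10 with Sgce -0.065. With the length gradient regressed out, Meg3 with Dlk1 was 0.020 at the end of the regimens. With a library left out, the ranges at the end of the regimens were -0.039 to 0.524 for Rian with Mirg and -0.406 to 0.148 for Meg3 with Dlk1. After refeeding they were -0.279 to 0.08 for Rian with Mirg, -0.144 to 0.245 for Meg3 with Dlk1, -0.111 to 0.176 for Nnat with Blcap, -0.142 to 0.354 for Peg10 with Sgce, and -0.047 to 0.312 for the length gradient with Peg3.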
